A study of Mus musculus with 16 samples.

Results

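The comparison described here set GF mice colonized with microbiota of constipated donors against GF mice colonized with microbiota of control donors, by the transcripts of the smooth muscle of their proximal colon. It holds 8 of the 16 arrays of the series, chosen by the group written in their labels, with 4 arrays labelled C/+Lop and 4 labelled C/-Lop. The C/+Lop mice (PIC recipients below) were gavaged with cecal contents of SPF donors that had drunk 0.1% loperamide for 7 days, the model called pharmacologically induced constipation (PIC). The C/-Lop mice (control recipients below) were gavaged with cecal contents of donors that had no loperamide. All recipients were wild type C57Bl/6 mice that were germ-free until the gavage, age-matched to donors of 8 to 10 weeks, and were killed 4 weeks after colonization. None of them received loperamide after colonization. The labels do not state how many donors were used or whether each array holds RNA of a separate mouse. The p-values of the main fit thus measure only how far arrays scatter within their groups, over all 16 arrays. Part of that scatter may be technical. The ages and the length of colonization given for such transfers vary within the study's own text, and those above are from the series record.

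Loperamide slows transit by acting on opioid receptors of the enteric nervous system, which sets the rhythm and strength of contraction of the colon wall. Contraction itself follows from acetylcholine at muscarinic receptors, a rise of calcium and phosphorylation of myosin, and is opposed by nitric oxide and cyclic nucleotides. Gut bacteria can reach this circuit through short-chain fatty acids, bile acids, serotonin released by enteroendocrine cells and signals to immune cells. The question addressed was whether the colon of mice that received PIC microbiota differs in such transcripts from that of mice that received control microbiota.

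RNA was hybridized to Illumina mouse BeadChips, which read each of 25697 probes as the mean fluorescence of the beads that carry it. Median intensities per array were 117 to 153 in PIC recipients and 124 to 145 in control recipients, and 12717 to 13508 probes in PIC recipients and 12463 to 13103 in control recipients were above background (detection p-value under 0.05). All values below are log2 intensities after background correction and quantile normalization, and a difference is the mean of the PIC recipients minus the mean of the control recipients, with the standard error (SE) and the 95% interval of a limma fit. The fit took all 16 arrays, so each SE, interval and p-value also draws on the scatter among the GF and among the SPF arrays. It took the 14102 probes that 4 or more of the 16 arrays detected. Of these, 13321 could be named, and 9862 genes were each represented by their brightest probe. The 6 defining genes of smooth muscle (Acta2, Actg2, Myh11, Tagln, Cnn1 and Des) were above background on all 8 arrays, with Acta2, smooth muscle actin, at 14.20 to 14.35 in PIC recipients and 14.16 to 14.35 in control recipients. Colonic epithelial transcripts were abundant too, with a mean over 13 genes of 11.19 to 11.39 in PIC recipients and 11.32 to 11.38 in control recipients, so the samples held mucosa beside muscle. In such mixed tissue, fewer cells of a type and less RNA per cell cannot be told apart.

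Some arrays stood apart within their group, and in the same way in both groups. Replicate 4 of each group carried high levels of interferon-induced transcripts, and replicate 1 of each group had the highest adipocyte transcripts, as described further below. Replicates 2 and 3 of both groups had Xist, the transcript of the inactive X chromosome, at 6.85 and 7.01 in PIC recipients and 6.88 and 6.90 in control recipients, and replicates 1 and 4 had it under 5. The Y-linked gene Eif2s3y was above background on replicates 1 and 4 alone. Each group thus held 2 arrays with Xist and 2 arrays with Y-linked transcripts, and sex was balanced between them.

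No probe passed an adjusted p of 0.05 between PIC and control recipients (percent called 0, n = 4 arrays per group, limma with Benjamini-Hochberg adjustment over 14102 probes). The smallest adjusted p was 0.512, that of Gbp10, a dim gene that the filter kept through the control recipients alone. At an unadjusted p under 0.05 there were 608 probes (4.31% of those tested), 304 (2.16%) higher and 304 (2.16%) lower in PIC recipients. A fit of the recipient arrays alone gave 890 (6.31%), 430 higher and 460 lower, and none passed the adjusted threshold. The 4 PIC arrays and the 4 control arrays did not overlap at 581 probes (4.12%), with 291 (2.06%) higher and 290 (2.06%) lower in PIC recipients. In the main fit, SPF against GF mice gave 2813 probes past the threshold (19.9% of those tested), also from 4 arrays per group. Pairs of the 8 recipient arrays correlated at 0.983 to 0.994 across probes, with a median of 0.989 within PIC recipients, 0.989 within control recipients and 0.988 between the groups.

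The arrays left limited room for differences between the recipients. The central 95% of differences over all probes lay between -0.30 and 0.30, and the median probe had an SE of 0.14. For 98.3% of probes the 95% interval lay within -1 and 1, that is, within a 2-fold change either way, and for 69.7% it lay within -0.5 and 0.5. Differences larger than 0.5 in size were measured at 77 probes, of which 30 were higher and 47 lower in PIC recipients. Only 4 probes had a difference larger than 1 in size, all of them lower in PIC recipients, and they were both probes of Aqp8 and those of Cyp2d12 and Tgm3, of which Tgm3 was above background on only 1 PIC array.

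**Figure D1:**
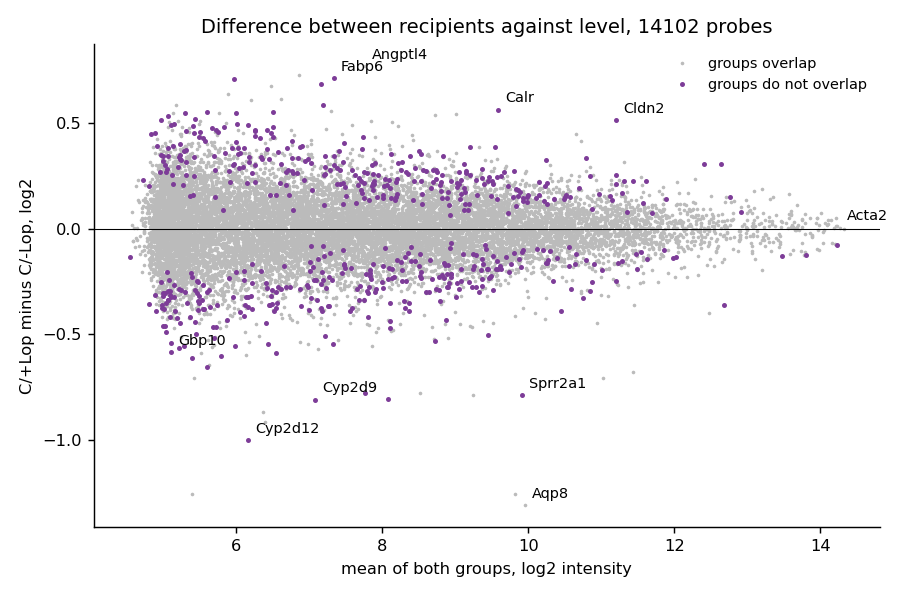
Difference between PIC recipients (C/+Lop) and control recipients (C/-Lop) in log2 units on the y axis, against the mean level of both groups in log2 intensity on the x axis, for 14102 probes. Purple points mark the 581 probes at which the 4 arrays of one group do not overlap those of the other, and no point passed an adjusted p of 0.05.

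Transcripts of the contractile apparatus lay close together in both groups. Over 18 measured genes of this list the mean was 10.48, 10.47, 10.50 and 10.53 in PIC recipients and 10.48, 10.51, 10.65 and 10.36 in control recipients. Every PIC array lay within the range of the control arrays. The median difference was 0.01, beside -0.003 over all 9862 genes, with members between -0.18 for Lmod1, which encodes the actin filament nucleator leiomodin 1, and 0.15 for Mylk, which encodes myosin light chain kinase. Mylk, the enzyme that phosphorylates myosin and starts contraction, had values of 12.92, 12.79, 12.60 and 12.82 in PIC recipients and 12.62, 12.55, 12.82 and 12.54 in control recipients (difference 0.15, SE 0.19, interval -0.26 to 0.56). Its groups overlapped. Myh11, smooth muscle myosin heavy chain, was at 12.25, 12.15, 12.27 and 12.57 in PIC recipients and 12.22, 12.20, 12.38 and 12.08 in control recipients (difference 0.09, SE 0.21). The highest value of the 8 was that of PIC replicate 4, and the lowest that of control replicate 4. Acta2 differed by 0.00 (SE 0.07, interval -0.15 to 0.16), and its 3 other probes by 0.03 to 0.09. None of the 18 genes had an unadjusted p under 0.05, beside 3.78% of all genes. All 18 intervals lay within -1 and 1, beside 98.1% of all genes.

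Muscarinic receptors and the calcium pathway downstream of them gave 16 measured genes with a median difference of -0.03. The groups did not overlap in 1 of the 16, beside 4.2% of all genes. Chrm3, the muscarinic receptor that drives contraction, was at 5.45, 5.34, 5.58 and 5.51 in PIC recipients and 5.56, 5.65, 5.68 and 5.25 in control recipients (difference -0.07, SE 0.24). Chrm2, the more abundant muscarinic receptor of gut muscle by protein, was dim on this platform, at 4.91, 4.86, 5.34 and 4.68 in PIC recipients and 5.40, 5.14, 4.74 and 4.50 in control recipients, and was above background on 1 array of each group. Ache, which encodes the enzyme that breaks down acetylcholine, was at 4.99, 5.19, 5.10 and 5.41 in PIC recipients and 4.74, 5.09, 5.61 and 5.01 in control recipients. It was dim too, above background on 2 PIC arrays and 1 control array. All 3 overlapped between the groups. Rgs2, which encodes a protein that shortens signalling by the G protein Gq below such receptors, was the gene without overlap. It was at 5.59, 5.70, 5.53 and 5.16 in PIC recipients and 6.19, 5.94, 6.08 and 6.18 in control recipients, and every PIC array was below every control array. The difference was -0.60 (SE 0.16, interval -0.94 to -0.26), without passing the adjusted threshold, and it was -0.19 when no background was subtracted. Rgs5, a related regulator abundant in pericytes, stood at the other end of the list with 0.15 (SE 0.20).

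Genes that act in smooth muscle relaxation, for or against it, gave 11 measured members with a median difference of -0.03. Pde3a, which encodes a phosphodiesterase that degrades cyclic AMP, was at 4.82, 5.09, 4.71 and 5.16 in PIC recipients and 5.87, 5.17, 5.25 and 5.08 in control recipients. The groups overlapped, since PIC replicates 2 and 4 were above control replicate 4, and the difference of -0.40 (SE 0.16, interval -0.74 to -0.05) rested on dim values, with 1 PIC array and 3 control arrays above background. It was -0.22 without control replicate 1. Kcnmb1, the beta subunit of the calcium-activated potassium channel that limits contraction, was at 6.18, 5.18, 5.37 and 5.95 in PIC recipients and 5.07, 5.25, 5.41 and 5.35 in control recipients (difference 0.40, SE 0.25). PIC replicates 1 and 4 stood above the other 6 arrays, and the difference was 0.23 without PIC replicate 1. The channel's pore subunit Kcnma1 had a difference of 0.18 (SE 0.17), and the receptor and kinase genes of nitric oxide signalling, Gucy1a1, Gucy1b1 and Prkg1, had differences of -0.08, -0.03 and 0.07.

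**Figure D2:**
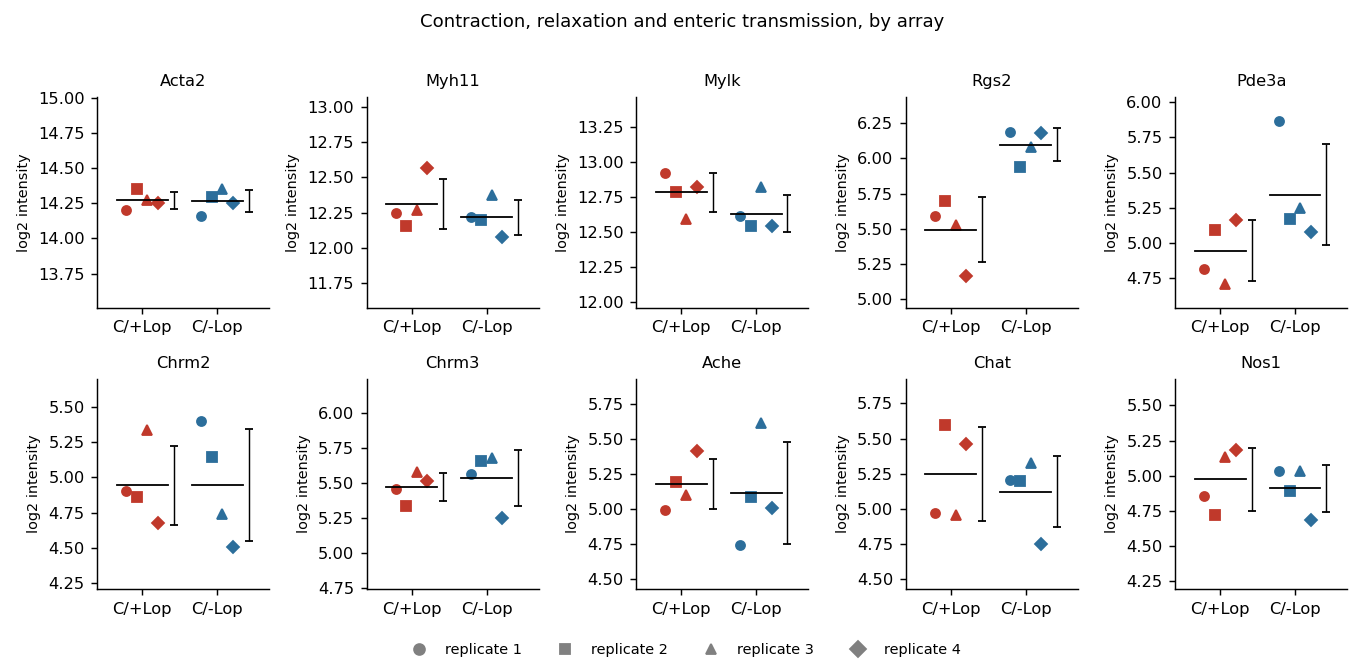
Log2 intensity of 10 genes of contraction, relaxation and enteric transmission on each array, with C/+Lop (PIC recipients, red) left of C/-Lop (control recipients, blue), the replicate shown by the symbol, the group mean by a line and the SD (n = 4) by the bar beside it. Each panel has its own range on the y axis. Rgs2 is the gene whose groups do not overlap.

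Enteric neurons, which carry the reflexes of transit, were represented by 22 genes with a median difference of -0.02. The list mean was 6.96, 7.05, 6.93 and 7.18 in PIC recipients and 7.25, 6.86, 7.21 and 6.91 in control recipients. Every PIC array lay within the range of the control arrays. Chat, which makes acetylcholine, was at 4.97, 5.60, 4.95 and 5.46 in PIC recipients and 5.21, 5.20, 5.33 and 4.75 in control recipients, with 2 arrays of each group above background. Nos1, the neuronal nitric oxide synthase, was above background on 1 PIC array and no control array, and no fold is given for it. Vip, a peptide of inhibitory neurons, was measured well above background at 10.01, 10.16, 10.04 and 10.38 in PIC recipients and 10.13, 9.96, 10.24 and 10.05 in control recipients (difference 0.05, SE 0.20). Calcb, which encodes a calcitonin gene-related peptide of sensory neurons, had the lowest difference of the list, with 5.69, 5.45, 5.25 and 5.31 in PIC recipients and 6.84, 5.42, 5.81 and 5.82 in control recipients (difference -0.55, SE 0.32, interval -1.24 to 0.13). Control replicate 1 was the highest of the 8 arrays and control replicate 2 lay among the PIC arrays, and the difference was -0.26 without control replicate 1. Interstitial cells of Cajal pace the contractions of the gut. Their chloride channel gene Ano1 was at 6.94, 6.85, 7.04 and 6.60 in PIC recipients and 7.20, 6.87, 7.25 and 6.95 in control recipients (difference -0.21, SE 0.22), and their receptor gene Kit was not analysed here for lack of a kept probe. Enteric glia were represented by 2 of 7 listed genes, Apod at -0.14 and Cryab at 0.14, and the defining genes Gfap, S100b and Sox10 were not measured.

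Receptors and transporters of short-chain fatty acids, the fermentation products of colonic bacteria, were present at very different levels. Ffar2, a receptor for acetate and propionate, was at 10.56, 10.67, 10.88 and 10.49 in PIC recipients and 10.51, 10.83, 10.73 and 10.69 in control recipients (difference -0.04, SE 0.34, interval -0.75 to 0.68). Slc5a8, a sodium-coupled transporter of butyrate, was at 10.78, 10.78, 11.02 and 11.14 in PIC recipients and 10.97, 10.98, 10.95 and 11.12 in control recipients (difference -0.07, SE 0.18). For both the groups overlapped. Ffar3, the related receptor for propionate and butyrate, was at 5.24, 4.96, 4.91 and 5.48 in PIC recipients and 5.80, 5.17, 5.38 and 5.41 in control recipients, with 2 PIC arrays and 4 control arrays above background. PIC replicates 2 and 3 were the lowest of the 8, and the difference was -0.30 (SE 0.13, interval -0.58 to -0.01). Hcar2, a receptor for butyrate and ketone bodies, differed by -0.15 (SE 0.17). Hdac1, one of the histone deacetylases that butyrate inhibits, was at 10.41, 10.24, 10.28 and 10.40 in PIC recipients and 10.17, 10.05, 10.15 and 10.16 in control recipients. The groups did not overlap, and the difference was 0.20 (SE 0.12, interval -0.06 to 0.46). Over the 9 measured genes, 7 had negative differences and the median was -0.10.

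Serotonin and hormones of enteroendocrine cells, which sense luminal contents, had their largest positive differences at the enzyme and the granule protein. Tph1, the enzyme that limits serotonin synthesis in enterochromaffin cells, was at 8.02, 7.99, 8.03 and 7.79 in PIC recipients and 7.72, 7.34, 7.54 and 7.50 in control recipients. Every PIC array was above every control array. The difference was 0.43 (SE 0.27, interval -0.14 to 1.00), with an SE that draws on the GF and SPF arrays of the fit as well. Chga, which encodes the granule protein chromogranin A of the same cells, was at 9.09, 8.54, 8.38 and 8.51 in PIC recipients and 8.40, 8.09, 8.19 and 8.07 in control recipients. Only PIC replicate 3 lay below a control array, and the difference was 0.44 (SE 0.19, interval 0.03 to 0.85) by the brightest probe and 0.25 and 0.22 by the others. By the brightest probe it was 0.29 without PIC replicate 1. Chgb, the related chromogranin B, differed by 0.27 (SE 0.16). Insl5, a hormone of colonic L cells, was at 9.20, 9.15, 9.93 and 8.92 in PIC recipients and 9.39, 10.39, 9.54 and 9.65 in control recipients (difference -0.45, SE 0.55). Its groups overlapped, and the difference was -0.23 without control replicate 2. The other L cell hormones Pyy and Gcg differed by -0.06 and 0.19. The serotonin transporter gene Slc6a4 differed by -0.14 and Htr4, a serotonin receptor that promotes transit, by -0.17 (SE 0.13).

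Bile acid genes had a median difference of 0.18 over 6 measured members, which 1 gene led. Fabp6, which encodes the bile acid binding protein of ileal enterocytes, was at 7.44, 7.58, 8.06 and 7.69 in PIC recipients and 6.66, 7.03, 7.06 and 7.17 in control recipients. The groups did not overlap. The difference was 0.71 (SE 0.43, interval -0.21 to 1.63), and 0.40 when no background was subtracted. The bile acid receptor gene Nr1h4 (FXR) differed by 0.18 (SE 0.24), and Slc51a, a subunit of the bile acid exporter, by 0.21 (SE 0.83).

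Fluid transport held the largest difference in size of any gene. Aqp8, a water channel of surface colonocytes, was at 8.05, 9.13, 9.11 and 10.90 in PIC recipients and 9.97, 10.77, 10.36 and 11.31 in control recipients. PIC replicates 1, 2 and 3 were below all control arrays and PIC replicate 4 was among them. The difference was -1.31 (SE 0.66, interval -2.71 to 0.10), and the second probe gave -1.26 (SE 0.71). It was -1.84 without PIC replicate 4 and -0.89 without PIC replicate 1. The other 10 measured genes of the list lay between -0.26 for Aqp4, another water channel, and 0.22 for Gucy2c, the receptor of guanylin. The list mean was 9.74, 9.82, 9.89 and 9.96 in PIC recipients and 9.99, 10.02, 10.02 and 10.02 in control recipients, and all PIC arrays were below all control arrays. That gap rested on Aqp8, since the mean of the other 10 genes was 9.90, 9.89, 9.96 and 9.87 in PIC recipients and 9.99, 9.94, 9.99 and 9.89 in control recipients, with overlap. The median difference of the 11 genes was -0.007, with 5 positive and 6 negative members.

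Among genes whose groups did not overlap, the largest negative differences were those of Cyp2d12, Cyp2d9, Nxpe4, Sprr2a1 and Ctse, and the largest positive ones those of Fabp6, Krt14, Calr, H2-Bl and Acbd5. Cyp2d12, a cytochrome P450, was at 5.67, 5.31, 5.70 and 5.96 in PIC recipients and 7.14, 6.53, 6.24 and 6.73 in control recipients (difference -1.001, SE 0.37, interval -1.79 to -0.21). Its relative Cyp2d9 was at 6.48, 6.46, 6.72 and 7.02 in PIC recipients and 7.60, 7.58, 7.19 and 7.54 in control recipients (difference -0.81, SE 0.27, interval -1.39 to -0.23). In both genes every PIC array was below every control array. The CYP2D genes of the mouse are close copies, so that their probes may share signal, and 2 other members, Cyp2d10 and Cyp2d26, had differences of -0.17 and 0.17. Without background correction the differences were -0.38 for Cyp2d12 and -0.42 for Cyp2d9. Sprr2a1, a small proline-rich protein of stressed epithelium that bacteria induce, was at 8.98, 9.52, 9.44 and 10.15 in PIC recipients and 10.40, 10.22, 10.29 and 10.33 in control recipients (difference -0.79, SE 0.25, interval -1.31 to -0.26). The 4 control arrays lay close together and the PIC arrays were spread below them, and the second probe, also without overlap, gave -0.56 (SE 0.24). This gene belongs to a family of near-identical copies, and the related Sprr1a had a difference of -0.65 (SE 0.36).

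Ctse, which encodes the aspartic protease cathepsin E, was at 7.40, 7.22, 7.51 and 7.34 in PIC recipients and 7.61, 8.86, 7.65 and 8.47 in control recipients (difference -0.78, SE 0.53, interval -1.91 to 0.35). The PIC arrays were tight and control replicates 2 and 4 stood high. Nxpe4 was at 7.38, 7.59, 7.75 and 7.98 in PIC recipients and 8.00, 8.92, 8.26 and 8.78 in control recipients (difference -0.81, SE 0.57). Its groups were separated by a narrow gap. In the other direction, Cldn2, the tight junction protein that forms pores for cations and water, was at 11.50, 11.55, 11.62 and 11.15 in PIC recipients and 10.73, 10.96, 11.06 and 11.02 in control recipients. No PIC array overlapped a control array, PIC replicate 4 was nearest to them, and the difference was 0.51 (SE 0.15, interval 0.19 to 0.84). Calr, the calcium-binding chaperone calreticulin, was at 10.12, 9.72, 9.93 and 9.70 in PIC recipients and 8.83, 9.66, 9.32 and 9.40 in control recipients (difference 0.56, SE 0.18, interval 0.19 to 0.94). Control replicate 1 was the lowest, and control replicate 2 came close to the PIC arrays. Krt14, a keratin of stratified epithelium, was at 6.87, 5.97, 6.11 and 6.35 in PIC recipients and 5.92, 5.81, 5.20 and 5.54 in control recipients (difference 0.71, SE 0.70). Its interval, from -0.78 to 2.19, was wide, though the SD was 0.40 in PIC recipients and 0.32 in control recipients. The SE draws on the GF arrays too, which ran from 5.01 to 9.46. H2-Bl, a class I MHC gene of a family of near-identical copies, differed by 0.55 (SE 0.24), with 4 PIC arrays and 2 control arrays above background.

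**Figure D3:**
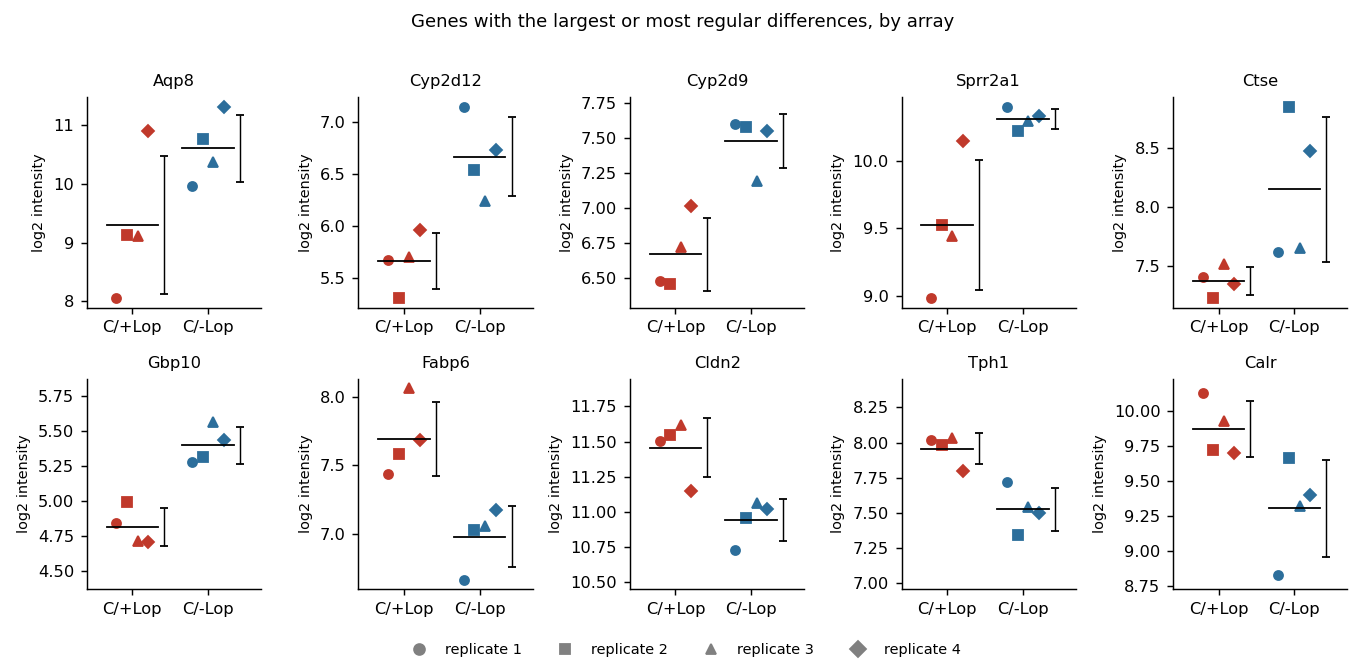
Log2 intensity of 10 genes with large or regular differences on each array, with C/+Lop (PIC recipients, red) left of C/-Lop (control recipients, blue), the replicate shown by the symbol, the mean by a line and the SD (n = 4) by the bar beside it. Each panel has its own range on the y axis. In 9 panels the groups do not overlap, and in that of Aqp8 PIC replicate 4 lies among the control arrays.

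Tgm3, Clca4a and Ly6g6c were added after their values were seen, for their size. Tgm3, a transglutaminase, was at 4.56, 4.84, 5.16 and 4.53 in PIC recipients and 4.999, 7.33, 5.91 and 5.87 in control recipients (difference -1.26, SE 0.72). Only PIC replicate 3 and 3 control arrays were above background, and the difference was -0.82 without control replicate 2. Clca4a, a surface colonocyte gene of the chloride channel accessory family, was at 10.03, 11.00, 11.27 and 12.07 in PIC recipients and 11.05, 12.25, 11.92 and 11.87 in control recipients (difference -0.68, SE 0.40). It was -0.32 without PIC replicate 1 and -1.005 without PIC replicate 4. Ly6g6c, of the Ly6 family of surface proteins, differed by -0.92 (SE 0.52). PIC replicate 4 was high in Clca4a, as in Aqp8, and PIC replicate 1 was the lowest of the 8 in both. General markers of epithelium had differences of smaller size. In PIC recipients their mean was 11.19, 11.25, 11.27 and 11.39, in the same order of arrays as Clca4a. In control recipients it was 11.35, 11.32, 11.33 and 11.38, and the cause was not tested. Of 13 such genes 9 had negative differences, with a median of -0.10, and they ranged from -0.22 for the surface keratin Krt20 (11.87, 12.13, 12.22 and 12.66 in PIC recipients, 12.41, 12.42, 12.31 and 12.63 in control recipients) to 0.12 for the goblet cell gene Agr2.

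Of the 16 genes with the smallest p-values, 8 in each direction, 9 were above background on all 8 arrays and 7 were dim, below background on 1 or more arrays. Gbp10, a guanylate-binding protein of the interferon response, was at 4.84, 4.99, 4.71 and 4.71 in PIC recipients and 5.27, 5.31, 5.56 and 5.44 in control recipients, and no PIC array but all 4 control arrays were above background. It was at least 1.22-fold lower in PIC recipients (fitted difference -0.58, SE 0.10; adjusted p = 0.512 from limma), where an array below background counts at the lowest signal detected on it, or at its own value if that is higher. Folds given here and below with "at least" allow for background alone. They do not allow for scatter between arrays or for other processing, and are not lower limits of a true difference. Slc12a4, a potassium chloride cotransporter, was at 4.86, 4.73, 5.003 and 4.74 in PIC recipients and 5.27, 5.43, 5.27 and 5.54 in control recipients, at least 1.21-fold lower in PIC recipients. Ftdc2 was at least 1.12-fold lower and Grtp1 at least 1.06-fold higher in PIC recipients, each with 1 group wholly below background. Gbp10 and Ftdc2 were below background on all GF and SPF arrays as well. The filter thus kept both only through the control recipients, the group in which they were high. Aspdh differed by -0.56 (SE 0.12), and Cdc123 by -0.42 (SE 0.12). Mypop was at 4.995, 5.19, 4.94 and 5.11 in PIC recipients and 4.66, 4.65, 4.41 and 4.72 in control recipients, with 2 PIC arrays and no control array above background, and no fold is given for it. The fitted difference of Gbp10 was -0.15 without background correction. Under the alternatives the fitted difference shrank to as little as -0.14 for Slc12a4, -0.13 for Ftdc2 and 0.14 for Grtp1.

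Among genes above background on all 8 arrays, Gstp1, a glutathione transferase that detoxifies electrophiles, was at 13.02, 12.76, 12.77 and 12.66 in PIC recipients and 12.57, 12.44, 12.54 and 12.43 in control recipients (difference 0.30, SE 0.09, interval 0.12 to 0.49). Its second probe gave 0.23 (SE 0.08), and with both probes every PIC array was above every control array. Gsta4, another glutathione transferase, named after its values were seen, was at 9.68, 9.34, 9.26 and 9.31 in PIC recipients and 9.20, 8.85, 8.85 and 9.15 in control recipients (difference 0.38, SE 0.27). Twf1, which encodes the actin-binding protein twinfilin 1, was at 6.99, 6.55, 6.69 and 6.59 in PIC recipients and 6.24, 6.26, 6.30 and 6.23 in control recipients (difference 0.45, SE 0.12). The control arrays of Twf1 were within 0.1 of each other and all PIC arrays were above them. Acbd5, a peroxisomal acyl-CoA binding protein, differed by 0.55 (SE 0.15), the kinase-like gene Pxk by 0.37 (SE 0.11), Agpat1, an enzyme of phospholipid synthesis, by 0.32 (SE 0.09), Kptn by -0.26 (SE 0.07) and Zbtb3 by -0.52 (SE 0.15). None of them passed the adjusted threshold.

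Across the 33 gene lists, 338 genes were measured and none passed. At an unadjusted p under 0.05 there were 9 of them (2.66%), beside 373 (3.78%) of all 9862 genes, and the groups did not overlap in 10 (2.96%), beside 4.2% of all genes. These shares were below those of all genes. The 10 were Rgs2, Hdac1, Tph1, Fabp6, Gbp10, Cyp2d9, Gsta4, Nod1, Nod2 and Dnajb1. Of these, Gsta4, Nod1 and Dnajb1 fell under none of the rules by which genes were named. List medians ran from -0.15 for the interferon-induced genes to 0.41 for the 3 genes of mesothelium, the lining of the gut's outer surface, in which Upk3b differed by 0.73 (SE 0.57), and by 0.42 without PIC replicate 1.

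**Figure D4:**
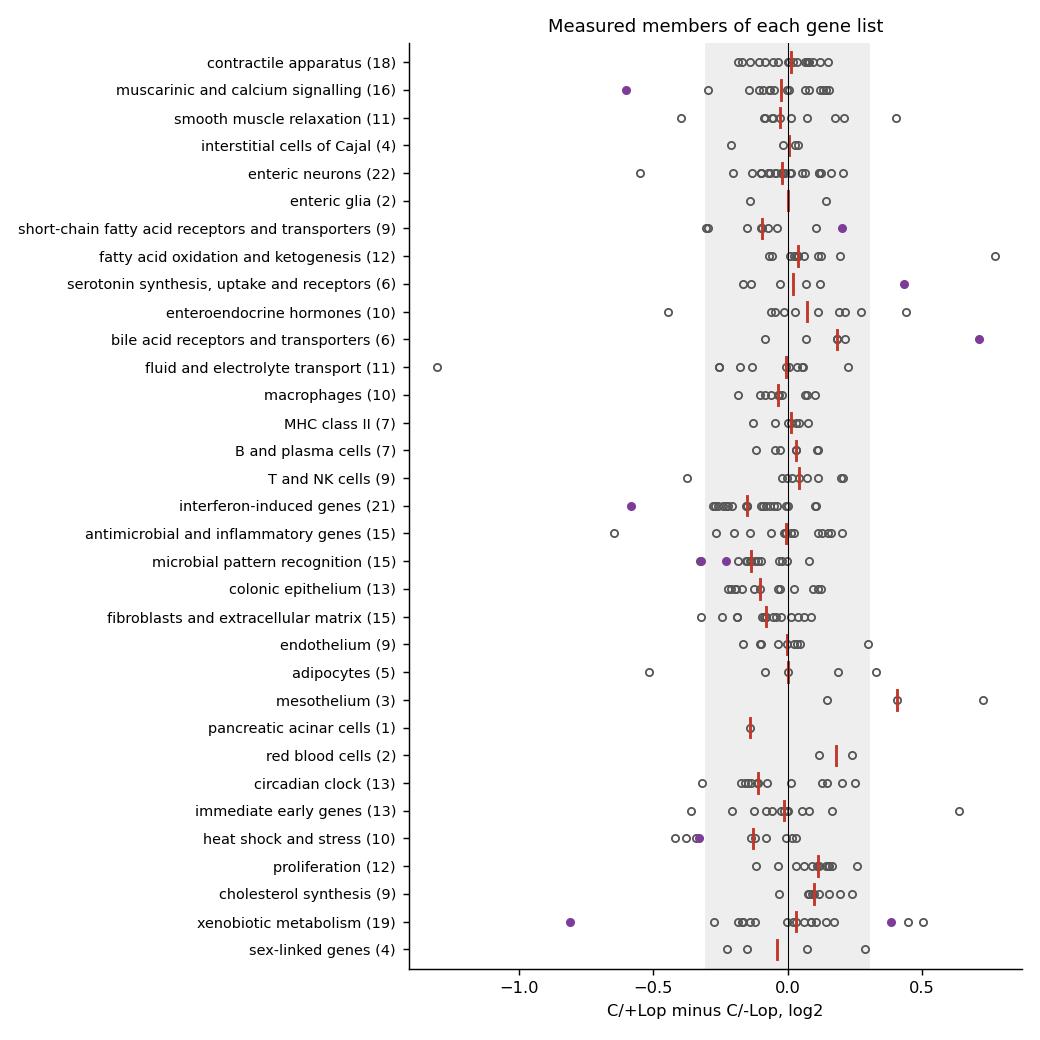
Difference between PIC recipients (C/+Lop) and control recipients (C/-Lop) in log2 units on the x axis, for the measured members of 33 gene lists (number of members in brackets on the y axis). Open circles are genes whose groups overlap, purple circles genes whose groups do not, red ticks list medians, and the grey band holds the central 95% of differences of all 14102 probes, from -0.30 to 0.30.

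In some lists most members had differences of 1 sign. Of 15 receptors and adaptors of microbial pattern recognition, 14 had negative differences, with a median of -0.14, beside -0.003 over all genes. The list mean was 7.14, 7.06, 7.13 and 7.14 in PIC recipients and 7.27, 7.13, 7.22 and 7.37 in control recipients, with overlap. Nod2, a receptor for bacterial muramyl peptides, was at 4.98, 5.04, 4.79 and 4.56 in PIC recipients and 5.25, 5.06, 5.20 and 5.15 in control recipients, with 0 PIC and 3 control arrays above background, and was at least 1.04-fold lower in PIC recipients. Nod1, its relative, was at 7.93, 8.07, 8.09 and 8.09 in PIC recipients and 8.37, 8.26, 8.19 and 8.28 in control recipients (difference -0.23, SE 0.13). Neither gene overlapped between the groups. The adaptor Myd88 differed by -0.15, Tlr4 by -0.14 and Tlr2 by 0.08. Both probes of the adaptor Tirap had separate levels within the groups, with 7.87, 6.60, 7.80 and 6.52 in PIC recipients and 7.91, 6.52, 7.74 and 7.93 in control recipients by one, and 7.55, 4.42, 7.28 and 4.49 in PIC recipients and 7.68, 4.38, 7.54 and 7.60 in control recipients by the other. PIC replicates 2 and 4 and control replicate 2 were the low arrays with both probes, and the difference was -0.33 (SE 0.33) by the first probe.

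Of 10 genes of heat shock and stress, 8 had negative differences (median -0.13). Dnajb1, a co-chaperone of the heat shock response, was at 10.46, 10.72, 10.45 and 10.72 in PIC recipients and 10.95, 10.82, 10.74 and 11.14 in control recipients (difference -0.33, SE 0.20). The chaperone Hsp90aa1 was dim, above background on no PIC array and 2 control arrays, and no fold is given for it. Its groups overlapped, since PIC replicates 2 and 3 were above control replicate 4. The fitted difference was -0.42 (SE 0.16, interval -0.75 to -0.09). Of 12 genes of proliferation 10 had positive differences (median 0.11), with Mcm6, a subunit of the replicative helicase, at 0.26 (SE 0.15). Cholesterol synthesis had 8 of 9 positive differences (median 0.10) and fatty acid oxidation 10 of 12 (median 0.04). Insig1 was the highest of the cholesterol list at 0.24 (SE 0.26) by its brightest probe. Its other probes gave 0.11 (SE 0.27) and, with the opposite sign, -0.38 (SE 0.18, interval -0.76 to -0.01). Angptl4, an inhibitor of lipoprotein lipase that microbes repress in the mouse intestine, was the highest of the fatty acid list, at 8.57, 8.42, 8.51 and 7.07 in PIC recipients and 8.03, 7.36, 7.34 and 6.77 in control recipients (difference 0.77, SE 0.56, interval -0.42 to 1.96). PIC replicates 1, 2 and 3 were above all control arrays and PIC replicate 4 was below them except for control replicate 4. Among immediate early genes, Ccn1, a matrix protein induced by stretch and growth factors, was at 6.30, 6.41, 6.71 and 5.41 in PIC recipients and 5.25, 5.67, 5.73 and 5.64 in control recipients (difference 0.64, SE 0.25), and its other probe gave -0.03. The other 12 genes of that list had no unadjusted p under 0.05. Fibroblast and matrix genes (median -0.08, 15 genes), endothelium (-0.002, 9 genes), macrophages (-0.03, 10 genes), the circadian clock (-0.11, 13 genes) and antimicrobial and inflammatory genes (-0.01, 15 genes) had no gene with an unadjusted p under 0.05. The share over all genes was 3.78%.

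The largest differences among the 8 arrays lay within the groups. Interferons, released by infected or activated cells, induce a large set of antiviral genes, and on replicate 4 of both groups these genes were high together. The mean over 21 measured interferon-induced genes was 7.41, 7.21, 7.14 and 8.83 in PIC recipients and 7.21, 7.25, 7.35 and 9.33 in control recipients. The highest array was replicate 4 for 20 of 21 genes in PIC recipients and for 20 of 21 in control recipients. Isg15, a ubiquitin-like antiviral protein, was at 7.50, 7.36, 7.38 and 10.38 in PIC recipients and 7.29, 7.24, 7.41 and 10.95 in control recipients. The lower 3 arrays of each group lay close together, and the GF arrays reached 8.53 and the SPF arrays 6.93. Usp18, which removes Isg15 from proteins, was at 7.22, 7.13, 6.72 and 9.60 in PIC recipients and 6.80, 7.29, 7.22 and 10.40 in control recipients. Rsad2, the antiviral enzyme viperin, was at 7.78, 7.42, 7.41 and 9.67 in PIC recipients and 7.56, 7.81, 7.37 and 10.16 in control recipients. Ifit3, which binds viral RNA together with its relatives, was at 8.42, 8.29, 8.18 and 9.72 in PIC recipients and 7.90, 8.01, 8.39 and 10.30 in control recipients. In all of these genes only replicate 4 stood far from the rest of its group. Oas2, which senses double-stranded RNA, was at 5.44, 5.14, 4.95 and 8.46 in PIC recipients and 5.19, 5.18, 5.41 and 9.09 in control recipients. Igtp, an immunity-related GTPase, was at 8.02, 7.74, 7.48 and 9.57 in PIC recipients and 7.47, 7.51, 7.88 and 10.17 in control recipients. Isg15, Usp18, Rsad2, Ifit3, Oas2, Igtp, Irf7, Cxcl9 and Oasl2 were added after their values were seen.

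Stated over all genes, 35 stood more than 1 log2 unit above the next array of their group on PIC replicate 4, and 51 did so on control replicate 4. They had 29 genes in common, which is 82.9% of the first set and 56.9% of the second, and 14 of the 29 were on the interferon list. The common genes include Irf7, a transcription factor that amplifies the response, the guanylate-binding proteins Gbp2 and Gbp3, the chemokines Cxcl9, Ccl4, Ccl5 and Ccl8, and Ido1, which degrades tryptophan. Cd8b1, a coreceptor of cytotoxic T cells, was at 4.50, 4.52, 4.51 and 7.24 in PIC recipients and 5.16, 4.72, 5.01 and 7.39 in control recipients, and only replicate 4 was above background in either group. The mean of 9 T and NK cell genes was 5.73, 5.93, 6.04 and 7.06 in PIC recipients and 6.04, 5.76, 5.84 and 7.01 in control recipients. That of 7 genes of MHC class II was 9.08, 8.54, 8.81 and 9.49 in PIC recipients and 8.56, 8.90, 8.74 and 9.72 in control recipients. In each of these lists the highest array was replicate 4 in both groups. No other number gave such sets except replicate 1, since replicates 2 and 3 had 0 to 2 such genes per group.

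These arrays bear on the comparison, because a group's mean of interferon-induced genes rests on its replicate 4. The median difference of the list was -0.15 with all arrays, with 18 of 21 genes negative. It was -0.47 without PIC replicate 4, 0.44 without control replicate 4 and -0.03 without both. Isg15 differed by -0.07 (SE 0.77, interval -1.71 to 1.58) with all arrays and by 0.10 (SE 0.33) without both. Among the genes described above, the differences without both replicates 4 were -1.60 (SE 0.69) for Aqp8, -1.08 (SE 0.46) for Cyp2d12, -0.99 (SE 0.26) for Sprr2a1, 0.64 (SE 0.17) for Cldn2, -0.46 (SE 0.18) for Rgs2 and 0.93 (SE 0.23) for Ccn1, and no probe passed the adjusted threshold.

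The promoters of 4 of these genes, whose transcripts moved together on the same arrays, are shown, and all 4 held a match to the letters searched. Interferon-activated complexes with IRF factors bind elements built from repeats of GAAA, and the letters GAAANNGAAA, or TTTCNNTTTC for the other strand, were searched in the 250 bases before the start of each gene in RefSeq (GRCm38.p6). Below are the 160 bases that end at the base before the start, 5′ to 3′ on the strand of the gene, with every match in capitals.
Isg15 (chr4:156200819-156200978, minus strand): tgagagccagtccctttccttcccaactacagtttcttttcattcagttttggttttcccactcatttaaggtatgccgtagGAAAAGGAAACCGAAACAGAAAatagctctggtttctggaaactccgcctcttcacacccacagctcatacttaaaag
Rsad2 (chr12:26456453-26456612, minus strand): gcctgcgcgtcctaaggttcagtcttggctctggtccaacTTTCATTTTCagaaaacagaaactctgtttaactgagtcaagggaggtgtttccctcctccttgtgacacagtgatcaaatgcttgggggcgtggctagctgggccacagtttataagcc
Ifit3 (chr19:34583369-34583528, plus strand): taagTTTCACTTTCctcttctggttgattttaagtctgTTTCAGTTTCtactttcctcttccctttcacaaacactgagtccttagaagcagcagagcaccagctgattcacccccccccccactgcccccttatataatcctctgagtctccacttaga
Igtp (chr11:58199396-58199555, plus strand): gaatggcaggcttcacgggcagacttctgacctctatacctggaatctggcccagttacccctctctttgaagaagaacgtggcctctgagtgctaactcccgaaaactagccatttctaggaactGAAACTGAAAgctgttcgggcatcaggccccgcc
Isg15 held 3 overlapping matches, the first beginning 78 bases before the start. Irf7, Cxcl9, Oasl2, Ifit2 and Ifi47, which also stood high on replicate 4 of both groups, held no match. Of the 21 interferon-induced genes, 18 had such a window and 10 of these held a match in any of their windows. Of the 29 genes common to both replicates 4, 20 had a window and 10 of these held a match. Over all 32851 windows the share was 2.98%, counted by window and not by gene, so the counts are not in the same unit. A match is a description of the letters and was not tested as a binding site.

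Adipocyte transcripts varied as widely, and in another order of arrays. Adipoq, the fat cell hormone adiponectin, was at 10.53, 9.51, 5.25 and 9.27 in PIC recipients and 10.55, 9.07, 8.19 and 8.82 in control recipients. Replicate 1 was the highest and replicate 3 the lowest in each group. Lep, which encodes leptin, was at 9.16, 7.97, 4.63 and 8.30 in PIC recipients and 8.73, 6.56, 6.41 and 7.05 in control recipients, and Car3 and Cyp2e1, added after their values were seen, followed the same order on the highest and lowest arrays of each group. The mean of the 5 measured adipocyte genes was 9.29, 8.57, 6.37 and 8.38 in PIC recipients and 9.30, 7.88, 7.59 and 7.90 in control recipients. Genes more than 1 log2 unit above the next array of the group numbered 11 on PIC replicate 1 and 16 on control replicate 1, with 8 in common (72.7% of the first set and 50% of the second): Adipoq, Apoc1, Car3, Cyp2e1, Glb1l2, Hp, Orm1 and Pon1. The difference between the groups was -0.52 for Adipoq (SE 1.12, interval -2.90 to 1.87), and it lay between -1.15 without PIC replicate 1 and 0.62 without PIC replicate 3. Over all kept genes the SD within the recipient groups had a median of 0.16, and it was above 1 for 28.

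**Figure D5:**
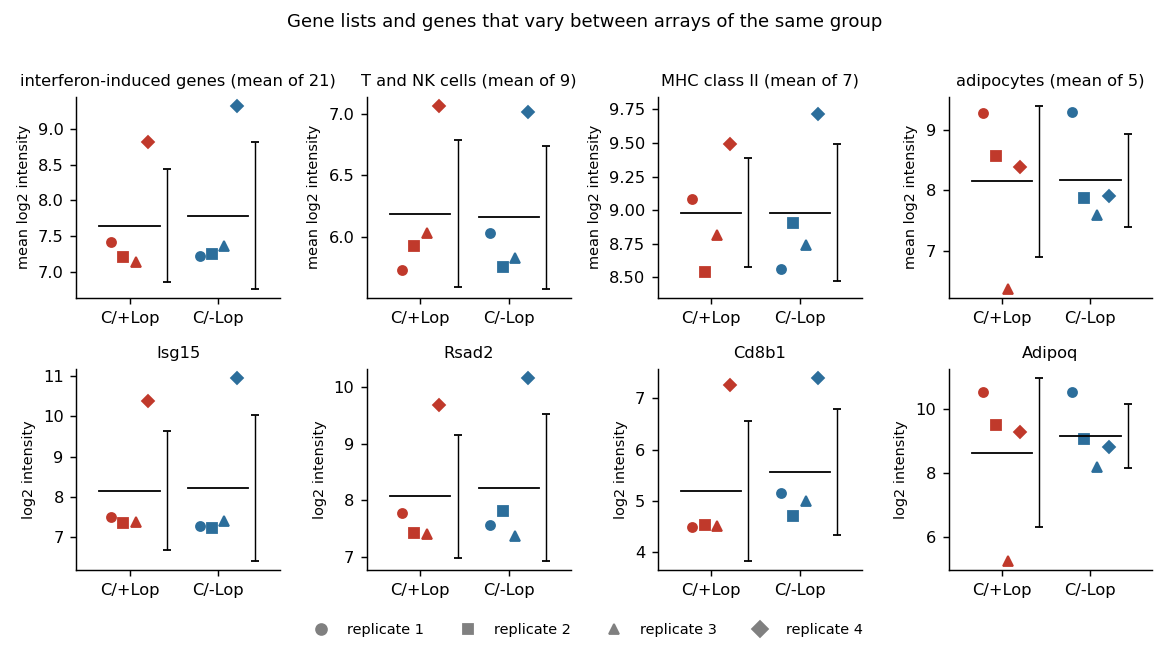
Mean log2 intensity of 4 gene lists (top) and log2 intensity of 4 genes (bottom) on each array, with C/+Lop (PIC recipients, red) left of C/-Lop (control recipients, blue), the replicate shown by the symbol, the mean by a line and the SD (n = 4) by the bar beside it. Replicate 4 is the highest array of both groups for interferon-induced genes, T and NK cells, MHC class II, Isg15, Rsad2 and Cd8b1, and replicate 1 is the highest for Adipoq.

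In principal components of the 8 recipient arrays, the first held 23.9% of the variance and placed PIC replicate 4 at -17.02 and control replicate 4 at -19.05, apart from the other 6 arrays. On it PIC replicates 1, 2 and 3 were at 17.24, 8.38 and 6.30 and control replicates 1, 2 and 3 at -5.16, 5.92 and 3.40. The 4 arrays of the groups overlapped. The second, with 20.4%, placed control replicate 1 at -27.25 and the rest between -2.18 and 10.77. The groups overlapped on it as well.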

How the data were processed

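The authors deposited mean bead intensity on a linear scale, without background subtraction or normalization, its standard error (a median of 3.05% of the intensity), the count of beads (a median of 37 to 39 per probe) and a detection p-value against negative controls. They also deposited log2 values of 16029 probes, processed with limma, per the submitters' notes, which give no version. These lay within 0.0251 of the values obtained here and served as an alternative. The neqc function of limma 3.58.1 (R 4.3.3) was applied to the intensities (normexp with inferred controls, offset 16, quantile normalization, log2). The offset shrinks fold changes of dim probes. A probe was kept where 4 or more of 16 arrays had a detection p-value under 0.05. Kept probes were fitted with 4 group means (12 residual degrees of freedom, eBayes, Benjamini-Hochberg over all kept probes, threshold 0.05). The paper's text names no test for arrays, and the t-test it names for other data was an alternative. Gene names came from the platform annotation, in which 15091 of 15096 entries matched mouse genes by Entrez identifier. The fit was tested on simulated data.

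Members and gene lists were chosen with earlier results of these data known, and lists carry no test. Named were the 8 genes per direction with the smallest p, the 5 per direction with the largest difference and no overlap, the extremes of each list with members under an unadjusted p of 0.05, study genes and sex-linked genes. Other alternatives were no background correction, cyclic loess, median scaling, 3 filters, recipient arrays alone, the replicate number as a block, sex as a covariate, array weights, and leaving out each array. The number of arrays limits the precision.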

Additional observations from a re-analysis of the deposited data

Results flagged for a closer look

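In 228 sets of 4 arrays (a named gene in 1 recipient group), 22 had 1 array far from the other 3. Chance gives about 1 in 20, but 10 of the 22 belong to genes named after their values were seen, so the count is not read against that share. Most were interferon or T cell genes on replicate 4. In PIC recipients that array was at 10.38 for Isg15, 8.46 for Oas2, 9.67 for Rsad2, 9.72 for Ifit3, 7.24 for Cd8b1 and 7.07 for Nkg7, a granule protein of cytotoxic cells whose other PIC arrays were at 5.57 to 5.73. In control recipients it was at 10.95 for Isg15, 9.09 for Oas2, 10.16 for Rsad2, 10.77 for Oasl2, 10.17 for Igtp, 10.40 for Usp18 and 7.39 for Cd8b1.

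Elsewhere in PIC recipients, Angptl4 was at 7.07 on replicate 4 (others 8.42 to 8.57), the B cell gene Cd79a at 4.86 on replicate 2 (others 5.45 to 5.54) and the hemoglobin gene Hba-a1 at 11.69 on replicate 1 (others 10.06 to 10.31). In control recipients, Cyp2d9 was at 7.19 on replicate 3 (others 7.54 to 7.60), Rrm2, a subunit of ribonucleotide reductase, at 5.55 on replicate 1 (others 6.29 to 6.30), S100a8 at 4.74 on replicate 1 (others 4.44 to 4.47), Slc5a8 at 11.12 on replicate 4 (others 10.95 to 10.98), Tirap at 6.52 on replicate 2 (others 7.74 to 7.93) and Zbtb3 at 6.21 on replicate 2 (others 5.84 to 5.87). Each is given as a value, and no cause was tested.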

How the results depend on the processing

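None of 21 alternatives called a probe between PIC and control recipients. The count at an unadjusted p under 0.05 was 299 with median scaling, 1237 without a filter, 890 with the recipient arrays alone, 893 by the methods' t-test, 1143 with array weights and 433 to 719 when 1 array was left out. The probes whose groups did not overlap numbered 290 with median scaling (132 higher and 158 lower), 923 without a filter, 933 (without PIC replicate 1) to 1328 (without PIC replicate 4) when 1 array was left out, and 2037 (14.4%) without replicate 4 of both groups, chosen after seeing the data. Fewer arrays per group give more such probes by construction. The 95% interval lay within -1 and 1 for 96.9% to 99.7% of probes. The labels do not say what the replicate numbers stand for, and they were not taken to pair the samples, since not every pair deviated together: deviations of the same number correlated at 0.018, 0.052, 0.18 and 0.36 for replicates 1 to 4, and only 3 and 4 correlated best with their own number. Sex matched by number, as did many of the genes that stood apart on replicates 1 and 4. With the replicate block the count at an unadjusted p under 0.05 was 936, with a smallest adjusted p of 0.669 and 0 calls, and every difference between group means kept its value.

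Of 116 named genes, 41 changed sign under at least 1 alternative. List medians that moved by more than the spread between arrays were those of short-chain fatty acid genes (-0.041 without background correction, -0.040 for probes detected on all 8 arrays, -0.048 with array weights, -0.136 to -0.010 leaving out 1 array), pattern recognition (-0.061 without background correction), fluid transport (-0.076 with median scaling, and -0.089 without control replicate 4 to 0.026 without control replicate 1), interstitial cells of Cajal (-0.21 for probes detected on all 8 arrays, which left 1 gene), enteroendocrine hormones (-0.054 without control replicate 2 to 0.139 without control replicate 1) and muscarinic and calcium signalling (-0.096 without control replicate 4 to -0.0015 without PIC replicate 1, and -0.095 without replicate 4 of both groups). The cause was not tested.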
